A study of Mus musculus with 10 samples.

Results

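The mitochondrial ATP synthase and the vacuolar-type ATPase (V-ATPase) are a pair of rotary machines with related subunits that were followed here at the mRNA level in interscapular brown adipose tissue (iBAT). Their genes were taken as all annotated genes whose symbol starts with Atp5 or Atp6v, pseudogenes left out, which gave 41 of 55414 genes, 18 for the ATP synthase and 23 for the V-ATPase. Of these, 17 and 18 had enough reads to be tested, as had 17690 genes in all. The samples were iBAT of 5 Cre+ and 5 Cre- C57BL/6J mice, all of them homozygous for a floxed RetSat allele, fed normal chow and killed at 12 to 14 weeks of age. Cre+ mice additionally carried a Ucp1-Cre transgene and are the RetSat knockout, whereas Cre- mice are the controls. RetSat encodes retinol saturase, an oxidoreductase that saturates retinol. Because the Ucp1 promoter drives Cre, the deletion is limited to cells that express Ucp1, mainly brown adipocytes, whereas RNA of the whole tissue was sequenced after poly(A) selection. In such bulk RNA, fewer cells of a type and less RNA per cell cannot be told apart. The labels number the samples without saying that each came from a separate mouse, so the p-values measure the spread between these samples.

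The ATP synthase sits in the inner mitochondrial membrane, where protons flowing back into the matrix turn its c ring and drive ATP formation in the F1 head. The V-ATPase runs the other way: its V1 head splits ATP and turns a ring in the V0 part that pumps protons into lysosomes and other compartments. Brown adipose tissue is known for dense mitochondria in which UCP1 lets protons bypass the ATP synthase, and for ATP synthase amounts that are low for its respiratory chain, which has been linked to scarce c subunit.

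RetSat was measured as a check of the labels. It had 18.9, 20.7, 39.0, 18.0 and 23.0 CPM in Cre+ replicates 1 to 5, against 151, 169, 156, 194 and 255 CPM in Cre- replicates 1 to 5, where CPM are counts scaled to the library sizes normalized by TMM. The groups did not overlap (log2 fold change -2.95, SE 0.24, with an adjusted p = 0.00402 by edgeR). Total counts ranged from 96991071 to 110293494 in Cre+ and from 91903095 to 132499312 in Cre- mice. The summed CPM of skeletal muscle markers was highest in Cre+ replicate 4 (268) and Cre- replicate 2 (533), against 1.50 to 12.8 in the other Cre+ and 1.42 to 19.8 in the other Cre- mice, and Cre+ replicates 1, 4 and 5 carry an added letter in their identifiers whose meaning the labels do not give. Of 7 brown adipocyte markers, 6 had positive fold changes, as had 8905 of all 17690 tested genes. edgeR called 0 of the 7, beside 0.164% of all genes. The markers had a median of 0.18 on the log2 scale and a range from -0.04 (Cidea) to 0.45 (Adrb3, adjusted p = 0.280 by edgeR). Ucp1 averaged 4786 ± 931 CPM in Cre+ mice, against 4223 ± 611 CPM in Cre- mice (SD, n = 5 each). The part of these markers in the subunit values was not tested.

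The c ring of the ATP synthase is encoded by 3 nuclear genes, Atp5g1, Atp5g2 and Atp5g3, which differ in their import peptides and give the same mature protein. The last 228 coding bases of each are shown because reads of 51 bases have to be told apart within them. Capitals mark the 58 positions at which the genes are not all alike (GENCODE M21 transcripts, coding strand, stop codon included).
Atp5g1: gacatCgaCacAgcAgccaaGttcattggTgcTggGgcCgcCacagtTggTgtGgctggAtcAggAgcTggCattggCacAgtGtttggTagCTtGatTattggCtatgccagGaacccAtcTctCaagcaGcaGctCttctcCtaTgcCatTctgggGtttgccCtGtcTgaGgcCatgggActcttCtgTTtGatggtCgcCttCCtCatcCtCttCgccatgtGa
Atp5g2: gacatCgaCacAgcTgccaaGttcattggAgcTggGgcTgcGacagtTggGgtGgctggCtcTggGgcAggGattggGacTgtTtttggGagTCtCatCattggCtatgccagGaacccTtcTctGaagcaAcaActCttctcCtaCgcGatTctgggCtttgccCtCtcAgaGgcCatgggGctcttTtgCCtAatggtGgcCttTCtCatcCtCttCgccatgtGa
Atp5g3: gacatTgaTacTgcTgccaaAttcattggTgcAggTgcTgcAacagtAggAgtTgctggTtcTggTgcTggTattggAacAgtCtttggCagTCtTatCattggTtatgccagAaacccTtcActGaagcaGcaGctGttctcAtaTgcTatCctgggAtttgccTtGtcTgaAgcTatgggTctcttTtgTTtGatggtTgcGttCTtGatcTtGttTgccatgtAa
Atp5g1 and Atp5g2 shared 85.1% of these bases, Atp5g1 and Atp5g3 79.8%, and Atp5g2 and Atp5g3 78.5%. The longest stretch without a difference was 21 bases between Atp5g1 and Atp5g2, shorter than a read, so the coding differences separate the 3 genes from each other. Processed copies elsewhere in the genome are closer. All 51-base windows of the Atp5g2 coding sequence and 65.8% of those of the Atp5g1 transcript also occur in transcripts of other genes, such as Gm10175 for Atp5g2 and Gm10039 for Atp5g1, whereas none of the 664 windows of the Atp5g3 transcript do. The Atp5g2 transcript searched held its 441 coding bases only, whereas its counted exons span 1675 bases. The rest of its exons was not searched. Reads with several alignments were not counted, so the levels of Atp5g1 and Atp5g2 are uncertain. The copies themselves received few counts, with a sum of 0.312 CPM in Cre+ mice, against 0.461 CPM in Cre- mice, for those that share windows with Atp5g2. Reads with several alignments were dropped there too, so these sums cannot show how many reads came from the copies.

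Of the 40 distinct member genes, 24 had no such shared window and 9 shared more than 10% of their windows. Besides Atp5g1 and Atp5g2, Atp5l (68.4%), Atp5h (66.1%) and Atp6v0c (49.1%) were the most affected. For Atp5h, as for Atp5g2, only coding bases were searched (486, against 1465 bases of counted exons). The mtDNA-encoded mt-Atp6, which makes the a subunit that passes protons to the c ring, shared 99.5% of its windows with copies that include Gm10925.

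**Figure D1:**
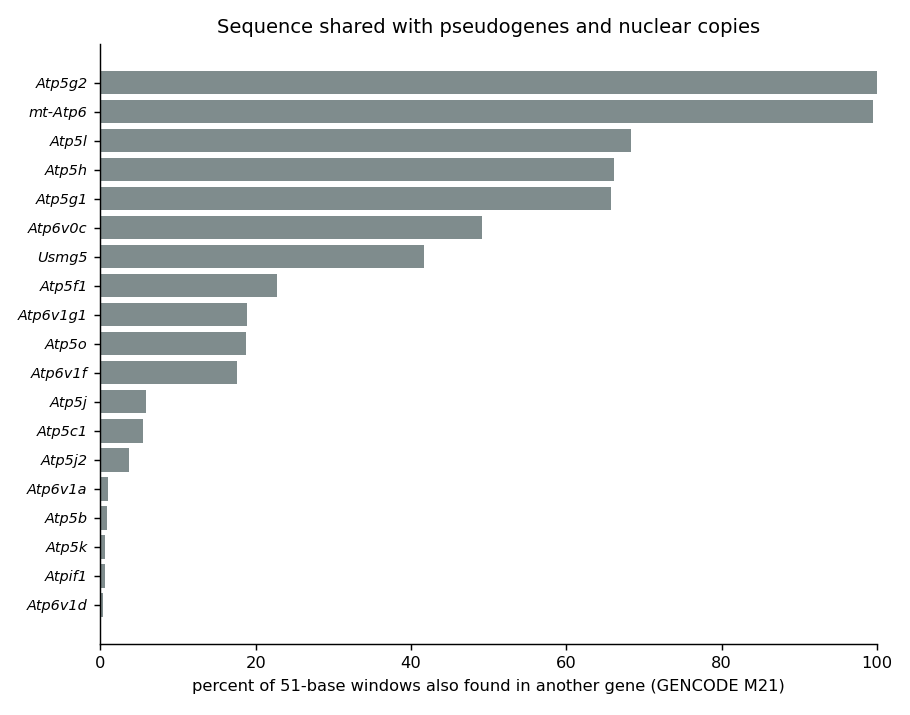
Share of 51-base windows of each transcript that also occur in another annotated gene (horizontal axis, percent), for the genes with any such window. All windows of Atp5g2 and 99.5% of those of mt-Atp6 are shared, and Atp5l, Atp5h, Atp5g1 and Atp6v0c lie between 49.1% and 68.4%. For Atp5g2 and Atp5h the transcript searched held coding bases only.

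Per length of annotated exon, ATP synthase genes were far more abundant than V-ATPase genes. The catalytic β subunit gene Atp5b had 1396 ± 63.0 CPM per kb in Cre+ and 1454 ± 108 in Cre- mice, and Atp5a1, which encodes the α subunit beside it, had 1188 ± 37.9 and 1158 ± 47.9 CPM per kb (SD, n = 5). In the V-ATPase head, the catalytic A subunit gene Atp6v1a had 20.3 ± 1.15 CPM per kb in Cre+ and 21.1 ± 2.03 in Cre- mice, and Atp6v1b2, which encodes the B subunit, had 26.5 ± 0.628 and 27.7 ± 1.31. The tested ATP synthase genes spanned 0.632 (Atp5g1) to 1396 (Atp5b) CPM per kb in Cre+ and 0.534 to 1454 in Cre- mice. The tested V-ATPase genes spanned 0.0907 (Atp6v0d2) to 57.8 (Atp6v1f, the F subunit of the rotor) in Cre+ and 0.0329 to 55.8 in Cre- mice. In Cre- mice, Atp5b, Atp5a1, Atp5k and Atp5d headed the ATP synthase genes, with each mean apart from the next by more than the SD of both. Further down, Atp5j2 and Atp5e (202 and 201 CPM per kb) could not be ordered within their spread. Exon length is long for some genes (4912 bases for Atp5g1, 6443 for Atp5l), which lowers their level per kb.

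**Figure D2:**
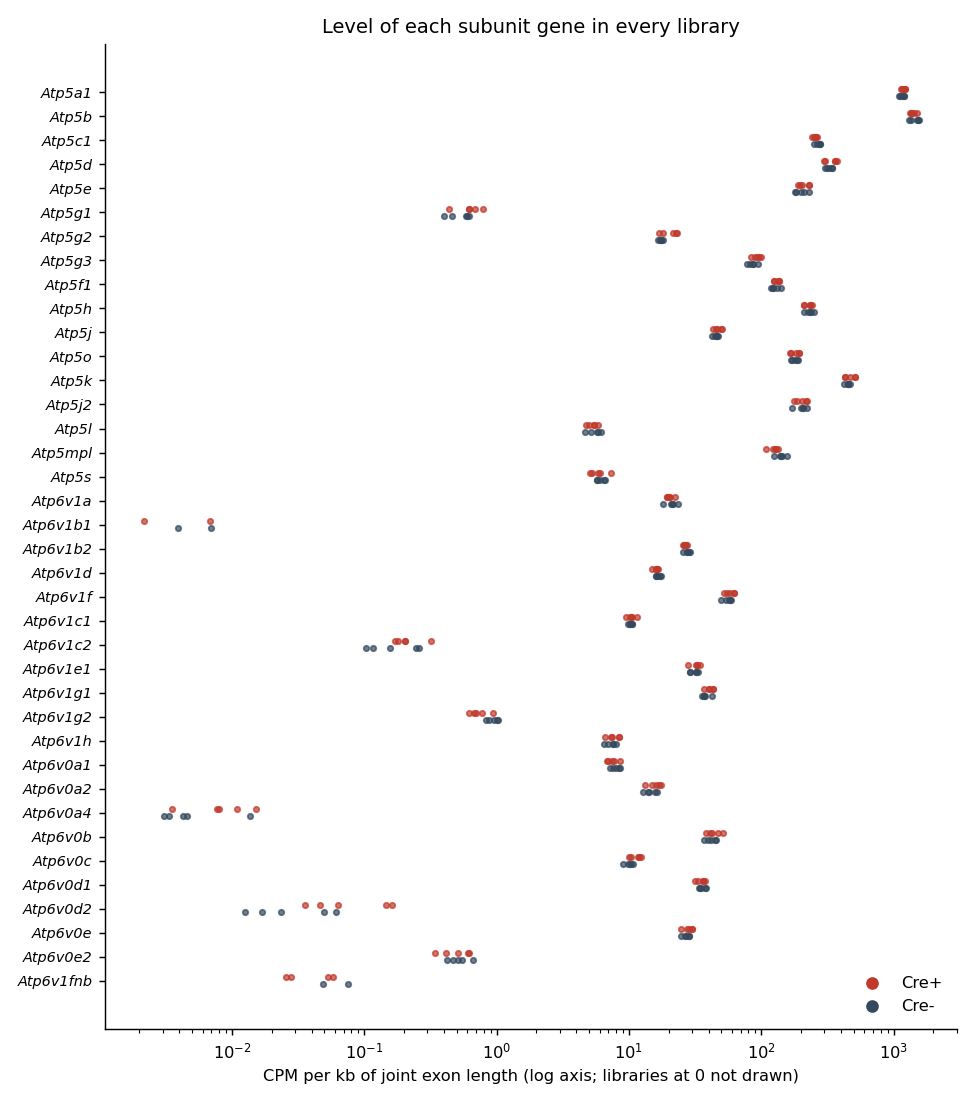
Level of each subunit gene in every library, in CPM per kb of joint exon length on a log axis, Cre+ in red above Cre- in blue. Atp5b lies highest, at 1396 CPM per kb in Cre+ and 1454 in Cre- mice on average, most V-ATPase genes between 7.34 and 57.8, and Atp6v0d2, Atp6v0a4 and Atp6v1b1 below 0.2.

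Summed over all members, the ATP synthase genes took 1.50, 1.33, 1.37, 1.44 and 1.49% of all gene counts in Cre+ replicates 1 to 5, against 1.30, 1.43, 1.34, 1.37 and 1.39% in Cre- replicates 1 to 5. The means were 1.43 ± 0.0744% and 1.37 ± 0.0493% (SD, n = 5 each), and the groups overlapped. V-ATPase genes took 0.119 ± 0.00421% of counts in Cre+ mice (0.112 to 0.122%) and 0.112 ± 0.00339% in Cre- mice (0.108 to 0.117%), again with overlap. With mtDNA-encoded genes left out of the total, the shares were 1.75 ± 0.0765% in Cre+ and 1.75 ± 0.0594% in Cre- mice for the ATP synthase and 0.146 ± 0.00526% and 0.144 ± 0.00449% for the V-ATPase. The ratio of ATP synthase to V-ATPase counts was 12.0 ± 0.716 in Cre+ mice (11.0 to 12.9) and 12.2 ± 0.579 in Cre- mice (11.8 to 13.2), so the balance of the machines differed by less than the spread within either group. No p-value is given for such sums.

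**Figure D3:**
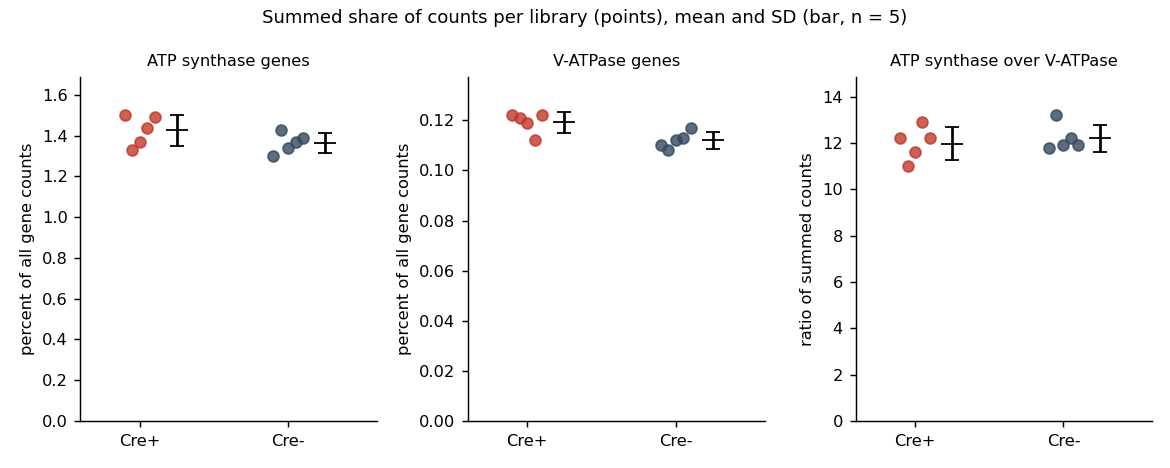
Summed share of all gene counts (percent) for ATP synthase and V-ATPase genes and the ratio of their counts, for each library, with Cre+ left of Cre-. Points are libraries and bars mean ± SD (n = 5). Cre+ and Cre- points overlap in all 3 panels, at 12.0 and 12.2 on average for the ratio.

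None of the 35 tested members was called at an adjusted p under 0.05. edgeR called 0 of 17 ATP synthase and 0 of 18 V-ATPase genes, beside 29 of all 17690 genes (0.164%), DESeq2 called 0 members beside 393 of 17209 genes with an adjusted p (2.28%), and limma voom, weighting samples by quality, called 0 beside 148 (0.837%). At an unadjusted p under 0.05, edgeR had 2 members in each machine, against 12.3% of all genes. In each machine 1 of them was higher in Cre+ mice, as were 6.40% of all genes, and 1 lower, as were 5.95%. In 0 of 35 did the groups fail to overlap, against 2.67% of all genes. The median log2 fold change was 0.04 for ATP synthase genes, 0.04 for V-ATPase genes and 0.00 for all genes. For 25 of the 35 members (71.4%) the log2 fold change lay between -0.1 and 0.1, as it did for 38.5% of all genes. A gene with more counts has a narrower interval, and all but 5 of the members had a mean of at least 10 CPM in Cre- mice. The 95% interval lay within 0.3 of 0 on the log2 scale for 14 of 17 ATP synthase and 13 of 18 V-ATPase genes. Larger changes of these 27 genes are outside their intervals.

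**Figure D4:**
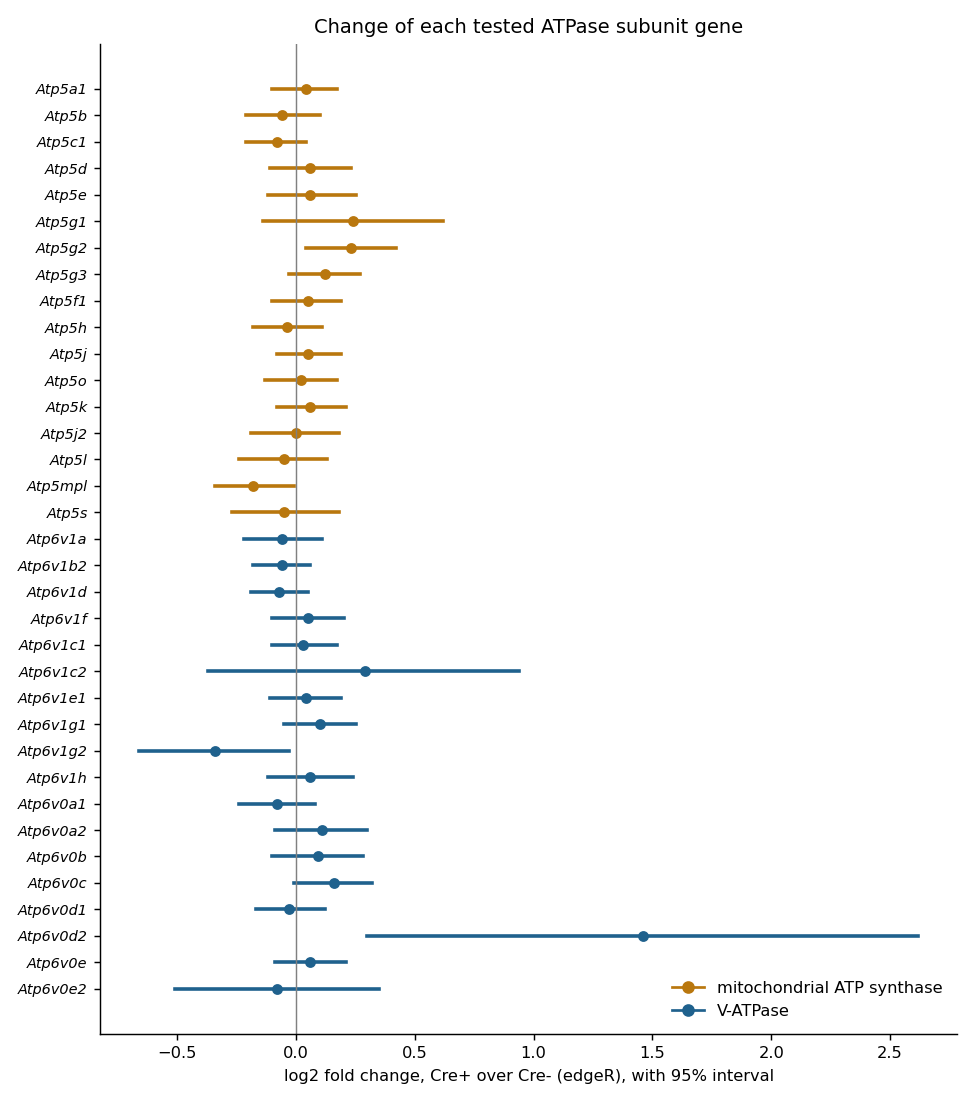
Log2 fold change of Cre+ over Cre- mice by edgeR with its 95% interval for the 17 ATP synthase and 18 V-ATPase genes tested (n = 5 per group). Most points lie between -0.1 and 0.1, and Atp6v0d2 (1.46) and Atp6v1g2 (-0.34) stand furthest out.

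In the F1 head of the ATP synthase, Atp5a1 had a log2 fold change of 0.04 (95% interval -0.10 to 0.17) and Atp5b one of -0.06 (-0.21 to 0.10). The rotor stalk genes Atp5c1 (γ), Atp5d (δ) and Atp5e (ε) had -0.08, 0.06 and 0.06. Atp5c1 had 481, 493, 501, 461 and 485 CPM in Cre+ mice, against 531, 534, 503, 517 and 479 CPM in Cre- mice (adjusted p = 0.603 by edgeR). Except for Cre- replicate 5, every Cre- value was above every Cre+ value.

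In the c ring, all 3 genes had positive fold changes, and 1 passed an unadjusted threshold. Atp5g2 (ENSMUSG00000062683.12, chromosome 15 of GRCm39, 102571299 to 102580787) had 38.7, 28.2, 30.3, 35.8 and 37.7 CPM in Cre+ mice, against 30.3, 28.7, 29.1, 29.4 and 27.8 CPM in Cre- mice. Cre+ replicates 1, 4 and 5 lay above all Cre- mice, and Cre+ replicates 2 and 3 lay among them. The log2 fold change was 0.23 (SE 0.09, adjusted p = 0.309 by edgeR). The 3 high libraries are those with an added letter in their identifiers, and without them the log2 fold change was 0.01 (adjusted p = 0.991 by edgeR). Over all alternatives run, the adjusted p of Atp5g2 ranged from 0.144 to 0.991. The part of that letter in the result cannot be told apart from the mice that carry it.

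Atp5g3 (chromosome 2, 73738791 to 73741670) had 211, 197, 216, 182 and 204 CPM in Cre+ mice, against 169, 207, 188, 188 and 179 CPM in Cre- mice. The groups overlapped, and the fold change was 0.12 on the log2 scale (SE 0.07, adjusted p = 0.526 by edgeR). Atp5g1 (chromosome 11, 95959678 to 95966496) had 3.39, 2.16, 3.02, 3.91 and 3.04 CPM in Cre+ mice, against 3.03, 2.91, 2.27, 2.94 and 1.97 CPM in Cre- mice. Its fold change was 0.24 on the log2 scale (SE 0.18, adjusted p = 0.612 by edgeR), with overlapping groups. Counts per exon length put the c subunit mRNA at 81.5 ± 2.35% Atp5g3, 17.9 ± 2.26% Atp5g2 and 0.557 ± 0.125% Atp5g1 in Cre+ mice. In Cre- mice it was 82.6 ± 1.33%, 16.9 ± 1.28% and 0.518 ± 0.0956% (SD, n = 5 each). The order of the 3 genes was the same in all 10 libraries and by each length used. Reads that align to the copies of Atp5g1 and Atp5g2 as well are not in these shares. By transcript length, Atp5g1 made up 1.43 ± 0.310% in Cre+ and 1.33 ± 0.241% in Cre- mice. That scale divides Atp5g2 by its 441 coding bases alone, but Atp5g3 by a transcript of 714 bases that is longer than its coding part.

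The peripheral stalk, which holds the F1 head still, was covered by Atp5f1 (b subunit), Atp5h (d), Atp5j (coupling factor) and Atp5o (OSCP), with log2 fold changes of 0.05, -0.04, 0.05 and 0.02. The annotation has a further Atp5o entry that reads through to Donson, with 1 count in the 10 libraries. Of the small membrane subunits, Atp5k (e), Atp5j2 (f) and Atp5l (g), which help the enzyme form dimers that bend the cristae, had 0.06, 0.00 and -0.05. Atp5mpl, which encodes a small proteolipid of the same part (chromosome 12, 111927809 to 111933411), had 149, 158, 162, 132 and 155 CPM in Cre+ mice, against 168, 189.8, 151, 171 and 175 CPM in Cre- mice. Only Cre- replicate 3 fell among the Cre+ values, the other Cre- mice lying above all of them. The log2 fold change was -0.18 (SE 0.08, adjusted p = 0.378 by edgeR). It was -0.09 (adjusted p = 0.591 by edgeR) without the libraries high in muscle transcripts, Cre+ replicate 4 and Cre- replicate 2. Without the lettered Cre+ libraries it was -0.10. Its adjusted p was 0.340 to 0.801 over all alternatives run. Atp5s, the coupling factor B gene, had -0.05. Usmg5, known as DAPIT, is part of the same membrane region although its symbol falls outside the rule. In Cre+ mice it averaged 179 ± 16.5 CPM, against 176 ± 18.1 CPM in Cre- mice (SD, n = 5 each), with a fold change of 0.02 on the log2 scale.

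The ATP synthase inhibitor gene Atpif1, whose protein blocks ATP splitting when the membrane potential collapses, had 4.91, 5.03, 5.92, 6.41 and 6.68 CPM in Cre+ mice, against 4.88, 5.30, 4.89, 5.62 and 4.25 CPM in Cre- mice. Cre+ replicates 3, 4 and 5 lay above all Cre- mice, while replicates 1 and 2 lay within their range. The log2 fold change was 0.21 (SE 0.12, adjusted p = 0.502 by edgeR), and 33.7% of the exon bases overlap Gm12999, whose reads cannot be told apart without strand.

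Among 11 genes that complete, assemble or feed the ATP synthase, edgeR, DESeq2 and limma voom called 0, beside 0.164, 2.28 and 0.837% of all genes. With shares this low, a list of this size is too short to show a lack of calls. The median log2 fold change was 0.03. The assembly factor gene Atpaf1, which guards the β subunit, had 17.8, 15.9, 13.5, 17.2 and 19.0 CPM in Cre+ mice, against 14.6, 14.2, 13.6, 14.1 and 12.3 CPM in Cre- mice. All Cre+ values but that of replicate 3 lay above all Cre- values (log2 fold change 0.28, SE 0.10, adjusted p = 0.269 by edgeR). Without the lettered libraries the log2 fold change was 0.09. The phosphate carrier gene Slc25a3 had 0.14 (SE 0.08, adjusted p = 0.515 by edgeR), and the adenine nucleotide carriers Slc25a4 and Slc25a5 had 0.06 and 0.00. mt-Atp6 had 1.34, 2.24, 1.91, 1.54 and 1.34 CPM in Cre+ mice, against 1.99, 3.30, 1.61, 2.56 and 2.89 CPM in Cre- mice. The groups overlapped, and the fold change was -0.56 on the log2 scale (SE 0.21, adjusted p = 0.318 by edgeR), and it was -0.25 without the lettered libraries. These few CPM hold only the reads that aligned to a single place, and 99.5% of its windows have another. mt-Atp8, which overlaps mt-Atp6 along 21.1% of its length, averaged 0.390 ± 0.119 CPM in Cre+ mice, against 0.523 ± 0.0880 CPM in Cre- mice (SD, n = 5 each), with a fold change of -0.42 on the log2 scale (adjusted p = 0.506 by edgeR). It shares no window with annotated transcripts of other loci, but copies outside annotated transcripts were not searched. Its reads can thus have been dropped as well, and its level is as uncertain as that of mt-Atp6.

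In the V1 head of the V-ATPase, Atp6v1a and Atp6v1b2 both had a log2 fold change of -0.06. Atp6v1b2 had 139, 146, 140.3, 137 and 142 CPM in Cre+ mice, against 136, 145, 146, 152 and 154 CPM in Cre- mice (adjusted p = 0.705 by edgeR). Its counterpart Atp6v1b1, the B isoform of acid-secreting cells such as kidney intercalated cells, was not tested: it had 0, 1, 0, 3 and 0 counts in Cre+ and 4, 0, 0, 2 and 0 counts in Cre- mice. B subunit mRNA was thus almost all Atp6v1b2, with 0.00686 ± 0.0115% Atp6v1b1 in Cre+ and 0.00817 ± 0.0122% in Cre- mice per exon length. Of the intercalated cell markers Foxi1, Slc26a4 and Slc4a1, the transcription factor Foxi1 and the anion exchanger Slc26a4 had no counts in any library. Slc4a1, an anion exchanger also known from red blood cells, had 0.496 ± 0.170 CPM in Cre+ mice, against 0.717 ± 0.274 CPM in Cre- mice.

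The rotor genes Atp6v1d (D) and Atp6v1f (F) had log2 fold changes of -0.07 and 0.05. In the stator, Atp6v1c1 (C), Atp6v1e1 (E), Atp6v1g1 (G) and Atp6v1h (H) had 0.03, 0.04, 0.10 and 0.06. Atp6v1g1 had 45.9, 42.0, 45.8, 48.6 and 49.2 CPM in Cre+ mice, against 40.4, 48.5, 42.9, 42.0 and 42.1 CPM in Cre- mice (adjusted p = 0.586 by edgeR), and the groups overlapped. Atp6v1c2, the minor C isoform, had 0.369 to 0.699 CPM in Cre+ mice, against 0.223 to 0.567 CPM in Cre- mice, a fold change of 0.29 on the log2 scale (95% interval -0.37 to 0.94).

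Atp6v1g2, the G isoform known from neurons (chromosome 17, 35452636 to 35457743), had the lowest fold change of the V-ATPase genes. It had 2.35, 1.96, 1.54, 1.70 and 1.74 CPM in Cre+ mice, against 2.57, 2.38, 2.10, 2.19 and 2.54 CPM in Cre- mice. Cre+ replicate 1 lay among the Cre- mice and the other Cre+ mice lay below all of them. The log2 fold change was -0.34 (SE 0.15, adjusted p = 0.364 by edgeR). It made up 1.79 ± 0.347% of G subunit mRNA per exon length in Cre+ and 2.42 ± 0.294% in Cre- mice, the rest being Atp6v1g1. The summed level of 5 Schwann cell and nerve markers was 105 ± 35.1 CPM in Cre+ (76.5 to 164) and 118 ± 26.9 CPM in Cre- mice (92.6 to 151). Of these, 5 of 5 had negative fold changes, from -0.64 to -0.03 on the log2 scale, as had 8785 of all 17690 tested genes. The sum was highest in Cre+ replicate 3 (164 CPM), where Atp6v1g2 was lowest (1.54 CPM). It was lowest in Cre+ replicate 2 (76.5 CPM), where Atp6v1g2 had 1.96 CPM. The part of these markers in the result was not tested. Atp6v1e2 and Atp6v1g3, known from testis and kidney, had 0 counts in all libraries. If counts are independent, this allows up to 3 counts or 0.0226 to 0.0326 CPM per library. Mates of a pair were counted singly, so the limit can be higher. Atp6v1fnb, a neighbour of Atp6v1f, had 0 to 4 counts in Cre+ and 0 to 6 counts in Cre- libraries.

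In the V0 membrane part, the proton-conducting ring is made by Atp6v0c and Atp6v0b. Atp6v0c (chromosome 17, 24382840 to 24388676) had 40.1, 33.7, 35.0, 41.5 and 39.3 CPM in Cre+ mice, against 36.6, 35.2, 34.3, 33.5 and 30.3 CPM in Cre- mice. As with Atp5g2, the c subunit gene of the ATP synthase, Cre+ replicates 1, 4 and 5 lay above all Cre- mice and replicates 2 and 3 among them (log2 fold change 0.16, SE 0.08, adjusted p = 0.427 by edgeR). Those 3 are the libraries with an added letter, and without them the log2 fold change was 0.01 (adjusted p = 0.983, and 0.270 to 0.983 over all alternatives run). Of its windows, 49.1% also occur in pseudogenes. Atp6v0b had a log2 fold change of 0.09, Atp6v0e 0.06 and the minor e isoform Atp6v0e2 -0.08.

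The a subunit steers the V-ATPase to its membrane and has 4 isoform genes. Atp6v0a1 had 49.1, 45.4, 50.3, 56.1 and 45.0 CPM in Cre+ mice, against 55.7, 52.3, 54.7, 49.9 and 47.5 CPM in Cre- mice, a fold change of -0.08 on the log2 scale (adjusted p = 0.691 by edgeR). Atp6v0a2 had 113, 118, 99.9, 88.7 and 107 CPM in Cre+ mice, against 93.7, 85.9, 95.0, 105 and 110.0 CPM in Cre- mice (0.11, adjusted p = 0.666). For each gene the groups overlapped. Tcirg1, the a3 isoform of osteoclast and lysosomal membranes, had 17.2, 15.7, 19.4, 19.3 and 18.6 CPM in Cre+ mice, against 18.3, 17.3, 17.0, 17.8 and 17.0 CPM in Cre- mice (0.05, adjusted p = 0.846). Atp6v0a4, the kidney isoform, had 2 to 8 counts per library and was not tested. Per exon length, Atp6v0a2 made up 57.7 ± 4.67%, Atp6v0a1 27.8 ± 3.26% and Tcirg1 14.5 ± 1.68% of a subunit mRNA in Cre+ mice. The shares were 55.3 ± 3.36%, 30.3 ± 2.75% and 14.5 ± 0.727% in Cre- mice (SD, n = 5 each). By transcript length, Atp6v0a2 and Atp6v0a1 were nearly level, at 44.2 ± 4.68% and 40.6 ± 3.64% in Cre+ and 41.6 ± 3.41% and 43.6 ± 3.09% in Cre- mice, so their order depends on the length used.

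The d subunit joins the ring to the rotor and has an abundant and a scarce isoform. Atp6v0d1 had 67.1, 65.3, 65.6, 56.2 and 59.6 CPM in Cre+ mice, against 62.7, 60.2, 62.0, 68.1 and 67.1 CPM in Cre- mice, a fold change of -0.03 on the log2 scale (adjusted p = 0.895 by edgeR). Atp6v0d2, the isoform known from osteoclasts and macrophages (ENSMUSG00000028238.7, chromosome 4, 19876841 to 19922605), had 14, 42, 18, 44 and 11 counts in Cre+ libraries and 6, 12, 20, 4 and 6 counts in Cre- libraries. These were 0.126, 0.399, 0.173, 0.439 and 0.0961 CPM in Cre+ mice and 0.0460, 0.136, 0.167, 0.0344 and 0.0633 CPM in Cre- mice. Cre+ replicates 2 and 4 were the highest, Cre+ replicate 3 was just above the highest Cre- mouse, and Cre+ replicates 1 and 5 lay among the Cre- mice. The log2 fold change was 1.46 (SE 0.54, adjusted p = 0.293 by edgeR), the largest of all members. The fold change was 1.15 (adjusted p = 0.324 by edgeR) without Cre+ replicate 4, and DESeq2 gave 1.47 (adjusted p = 0.166). Adjusted p-values were 0.166 to 0.479 over the alternatives that tested it. With at least 10 counts required in every library, it was not tested. Atp6v0d2 made up 0.264 ± 0.183% of d subunit mRNA per exon length in Cre+ and 0.0942 ± 0.0650% in Cre- mice.

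Markers of lipid-associated macrophages and osteoclasts (Trem2, Gpnmb, Acp5, Ctsk, Spp1 and Itgax) were compared beside Atp6v0d2. None of the 6 was called by edgeR, beside 0.164% of all genes. Of the 6, 6 had positive fold changes, with a median of 0.29 on the log2 scale. Positive fold changes were also found for 8905 of all 17690 tested genes. Trem2, a lipid receptor of these macrophages, had 0.234, 0.550, 0.461, 0.738 and 0.192 CPM in Cre+ mice, against 0.138, 0.296, 0.234, 0.395 and 0.232 CPM in Cre- mice, a fold change of 0.75 on the log2 scale (adjusted p = 0.457 by edgeR). As with Atp6v0d2, Cre+ replicates 2 and 4 were the highest and replicates 1 and 5 the lowest of the Cre+ mice. No other marker of the list had replicates 2 and 4 highest. Replicates 1 and 5 were the lowest Cre+ mice for Gpnmb, Ctsk, Spp1 and Itgax as well, but not for Acp5. Acp5, which made up most of the summed level, was lowest in Cre+ replicate 4 (85.3 CPM, against 149 to 184 CPM in the other Cre+ mice), and Spp1 was highest in Cre+ replicate 3 (1.48 CPM). Gpnmb, a membrane glycoprotein of the same cells, had 0.810, 3.64, 2.95, 2.44 and 1.12 CPM in Cre+ mice, against 1.10, 0.591, 2.44, 1.22 and 0.622 CPM in Cre- mice (0.87, adjusted p = 0.504). The summed level of the 6 markers was 158 ± 39.7 CPM in Cre+ (93.3 to 192, lowest in replicate 4) and 140.2 ± 21.3 CPM in Cre- mice (108 to 164), and that of 10 general macrophage markers 106 ± 25.1 (82.0 to 141) and 92.8 ± 12.0 CPM (85.1 to 114). No marker of these lists was at 0 in all libraries. Their part in the Atp6v0d2 values was not tested.

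**Figure D5:**
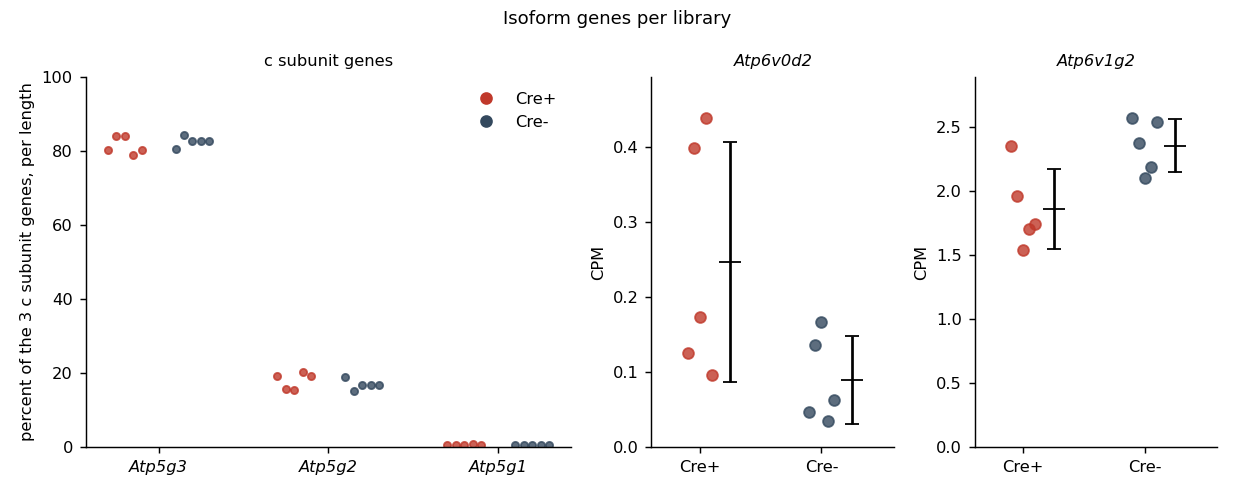
Isoform genes in each library, with Cre+ left of Cre-. Left, each c subunit gene as a percent of the 3 genes per exon length, centre and right, CPM of Atp6v0d2 and Atp6v1g2 with mean ± SD (n = 5). Atp5g3 holds 79.0 to 84.3% of the counted reads per exon length everywhere. Reads that also align to copies of Atp5g1 and Atp5g2 are not counted. The 2 highest Atp6v0d2 values, 0.399 and 0.439 CPM, are Cre+ mice.

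Among 14 V-ATPase partners, 13 were tested and edgeR and DESeq2 called 0, beside 0.164 and 2.28% of all genes. Their median log2 fold change was -0.03. The accessory subunit genes Atp6ap1 and Atp6ap2, which help assemble V0, averaged 77.9 ± 4.78 and 30.8 ± 1.75 CPM in Cre+ mice, against 82.6 ± 4.01 and 33.0 ± 1.72 CPM in Cre- mice (log2 fold changes -0.08 and -0.10, adjusted p = 0.626 and 0.579 by edgeR). The chaperone genes Vma21 and Ccdc115 had -0.08 and 0.14. Of 30 lysosomal and MiT/TFE genes, which encode hydrolases, membrane proteins and the transcription factors that induce them, edgeR and DESeq2 called 0, beside the same shares of all genes. The median log2 fold change of these 30 was -0.01. Tfeb, a transcription factor that induces lysosomal and V-ATPase genes, had 22.1, 19.8, 17.7, 15.2 and 21.3 CPM in Cre+ mice, against 15.6, 15.2, 13.9, 15.7 and 14.9 CPM in Cre- mice. All Cre+ mice but replicate 4 lay above all Cre- mice, with a fold change of 0.35 on the log2 scale (SE 0.10, adjusted p = 0.189 by edgeR, 0.0721 by DESeq2). Without Cre+ replicate 4, which was high in muscle transcripts, Tfeb was called (0.43, adjusted p = 0.0234 by edgeR, beside 1.84% of all genes), and the members called stayed at 0. Over all alternatives run, its adjusted p ranged from 0.0234 to 0.415.

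Promoters were searched on both strands for 6 motifs. They were the E-box CACGTG, the core that TFEB and related factors bind, the longer CLEAR element known for TFEB (the E-box with GT before and AC after it), the NRF1 core GCATGC, the longer NRF1 motif (the core with GC before and after it), an ETS motif (CCGG followed by AAGT) and CCAATC. Windows from 250 bases before to 50 after the start of transcription were available for 32 of 40 member symbols (RefSeq, GRCm38.p6). The E-box, a palindrome that reads alike on both strands, was found in 4 of 17 V-ATPase promoters (23.5%; Atp6v0b, Atp6v0d1, Atp6v0e and Atp6v1a) and 4 of 15 ATP synthase promoters (26.7%; Atp5f1, Atp5g1, Atp5g3 and Atp5l), against 8.09% of all genes. The CLEAR element, searched by its exact letters, was in 0 of 17 V-ATPase and 0 of 15 ATP synthase promoters, against 0.370% of all genes. A motif this rare is too seldom found for sets of this size to show a lack of it. Variants of the element were not searched. NRF1 is a regulator of nuclear genes for mitochondria. Its core was in 3 of 17 V-ATPase promoters (17.6%) and 6 of 15 ATP synthase promoters (40.0%), against 8.93% of all genes, and its longer motif, which holds the core, in 1 and 2, against 1.07%. The ETS motif was in 2 V-ATPase and 1 ATP synthase promoters, against 4.31% of all genes, and CCAATC in 3 and 3, against 18.2%. All genes here are the 27025 with a promoter window, which include genes with too few reads to be tested. The share among genes expressed like the members was not calculated, so these shares do not mark a trait of the ATPases. As an example of the E-box, the promoters of Atp5g3, the c subunit gene with the most counts, and of the catalytic A subunit gene are shown, with the E-box in capitals.
Atp5g3 promoter, chr2:73911277-73911576, minus strand: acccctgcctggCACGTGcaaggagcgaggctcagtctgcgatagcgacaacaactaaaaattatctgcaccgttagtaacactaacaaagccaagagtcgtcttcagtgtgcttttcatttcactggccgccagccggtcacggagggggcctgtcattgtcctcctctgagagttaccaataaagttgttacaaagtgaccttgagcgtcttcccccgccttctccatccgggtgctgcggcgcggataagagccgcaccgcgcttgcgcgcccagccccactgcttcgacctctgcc
Atp6v1a promoter, chr16:44139210-44139509, minus strand: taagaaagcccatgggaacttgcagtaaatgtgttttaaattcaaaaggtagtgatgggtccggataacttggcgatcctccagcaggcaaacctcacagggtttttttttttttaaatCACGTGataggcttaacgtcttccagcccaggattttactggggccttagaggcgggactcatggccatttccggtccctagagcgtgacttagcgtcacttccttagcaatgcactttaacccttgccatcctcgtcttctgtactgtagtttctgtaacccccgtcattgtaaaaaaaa
The genes with an E-box had log2 fold changes of 0.09, -0.03, 0.06 and -0.06 for the V-ATPase and 0.05, 0.24, 0.12 and -0.05 for the ATP synthase in the order named. edgeR called 0 of 8, beside 0.164% of all genes. A match describes the letters of the window only.

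In several libraries, most members of the ATP synthase deviated to the same side. In Cre+ replicates 1 and 5 and Cre- replicate 2, 14, 14 and 16 of the 17 ATP synthase genes lay above their own 10-library mean of log2 CPM. Cre+ replicates 1 and 5 carry the added letter, as does Cre+ replicate 4, where 9 of 17 lay above it. In Cre+ replicate 2, Cre- replicate 3 and Cre- replicate 5, 15, 14 and 13 of 17 lay below their mean. The median deviations in all of these libraries were between -0.11 and 0.11 on the log2 scale, and libraries of each genotype stood on both sides. For the V-ATPase, in Cre+ replicate 4 13 of 18 lay below their mean (median deviation -0.12), and in Cre+ replicate 1 13 of 18 lay above it (0.04). Within groups, the coefficient of variation of the tested genes had a median of 7.85% in Cre+ and 6.50% in Cre- mice for the ATP synthase and 8.38% and 7.10% for the V-ATPase. For all tested genes it was 16.6% in Cre+ and 14.0% in Cre- mice. Among genes with a mean of at least 10 CPM, it was 7.51% in Cre+ and 6.43% in Cre- mice for the ATP synthase. For the V-ATPase genes at that level it was 7.36% and 6.56%, and for all genes at that level 10.5% and 7.99%.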

How the data were processed

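iBAT RNA of the 5 Cre+ and 5 Cre- mice was read as pairs of 51 bases. The submitters' processing notes name Trimmomatic for trimming, STAR for alignment to GRCm39 and featureCounts 2.0.1 for counting. Versions of Trimmomatic and STAR were not given in the sources used here. The authors deposited raw counts per gene, unnormalized. Per the file headers, exons were those of GENCODE M28, both mates of a pair were counted singly, strand was ignored and reads with several alignments were dropped, which lowers genes with near-identical copies. RNA was isolated with an RNeasy kit per the labels, whereas the methods of the paper give a PeqGOLD kit.

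Groups were taken from the genotype labels. Symbols came from a table of gene identifiers that matched 52081 genes (94.0%). In R 4.3.3, counts were filtered with filterByExpr (minimum count 10, minimum total 15), scaled by TMM and tested by the quasi-likelihood F test of edgeR 4.0.16 with p-values adjusted after Benjamini-Hochberg over all 17690 tested genes. The SE is the log2 fold change divided by the square root of F. DESeq2 1.42.0, the method of the study, and limma 3.58.1 voom were alternatives, and the tests were checked on simulated counts. Levels per kb use the joint exon length of the counting annotation, and the transcript with the longest coding sequence in GENCODE M21 as an alternative. Where several transcripts tied, the shortest was taken, which for Atp5g2 and Atp5h held coding bases only. Windows of 51 bases were searched in all GENCODE M21 transcripts outside the gene's own locus, so copies outside annotated transcripts were not found. Promoters are from RefSeq.

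The members, gene lists and tests were chosen with earlier results of these data known. Values are given in every library for RetSat, the c subunit genes, Atpif1, the B, a and d isoform genes, the 4 members of each machine with the smallest p, those with the highest and lowest fold change, and named partners. For low counts, 3 counts were taken as the limit that a count of 0 allows, which covers counting error only, as total counts per library were 91903095 to 132499312. This limit treats counts as independent. Because mates of a pair were counted singly, small counts can stand for fewer fragments and the limit can be higher. Protein sequences were not used here.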

Additional observations from a re-analysis of the deposited data

Results flagged for a closer look

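In 98 groups of 5 libraries, each the values of a gene, share or sum of either genotype, 3 had a library whose gap to its nearest neighbour was past Dixon's critical share of the range of the group, and chance alone does so in about 1 in 20. Atp6v1c2, the minor C subunit isoform of the V-ATPase, had 0.699 CPM in Cre+ replicate 5, against 0.369 to 0.442 CPM in the other Cre+ mice. RetSat had 39.0 CPM in Cre+ replicate 3, against 18.0 to 23.0 CPM in the other Cre+ mice. mt-Atp8 had 0.675 CPM in Cre- replicate 5, against 0.452 to 0.512 CPM in the other Cre- mice.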

How the results depend on the processing

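Under all alternatives run, the number of members called stayed at 0 in both machines. Leaving out each library in turn gave medians of 0.02 to 0.06 for the ATP synthase and 0.03 to 0.08 for the V-ATPase on the log2 scale and -3.20 to -2.81 for RetSat, and 0 to 1 partner genes called. The call was Tfeb, without Cre+ replicate 4, and it was also the 1 called without Cre- replicate 2 and Cre+ replicate 4 together. Without the 3 lettered Cre+ libraries, the ATP synthase median was -0.04, Atp5g1 -0.02 and Atp6v0d1 0.03. Atp6v0d1 also turned to 0.01 without Cre+ replicate 4, with a range of -0.05 to 0.01 over the libraries left out. The cause was not tested. The ratio of the summed V-ATPase shares of Cre+ to Cre- mice was 1.01 with nuclear counts only and 1.01 with summed CPM, and that of the main shares ranged from 1.05 to 1.08 with a library left out. The share of Atp5g1, Atp5g2 and Atp5g3 among c subunit genes in Cre+ mice was 1.30, 14.3 and 84.4% without division by length, and 1.43, 21.2 and 77.4% by transcript length, a scale chosen after seeing the data. On that scale the length of Atp5g2 is that of its coding bases alone, which raises its share. The labels do not say that replicate numbers pair the samples. Same-numbered libraries correlated at 0.176, -0.11, 0.152, -0.195 and 0.216, so not every pair was positive, although Cre+ replicates 1, 3 and 5 matched best with the Cre- library of their number. With the replicate block the medians were 0.04 and 0.04, RetSat kept its call, and 0 members were called. The members with few counts, Atp6v1b1, Atp6v0a4, Atp6v1e2, Atp6v1g3 and Atp6v1fnb, are limited by depth.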
